A study of Mus musculus with 441 samples.

Results

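The genes described are 7 transcription factor genes of the interferon and antigen receptor response, Irf1, Irf2, Irf4, Irf7, Irf8, Irf9 and Batf, among 13561 genes measured in single lymphocytes from mouse pancreatic islets. They were chosen by name, and all 7 were found in the expression table. Each cell had been sorted with a tetramer, in which joined MHC class II molecules present a peptide to the T cell receptor, and was profiled by the full-length SMART-Seq2 method. The tetramers are labelled HIP and Ins, abbreviations that the labels do not expand, and the labels give no strain, genotype, age or number of mice for either sort. The HIP sort held 184 cells, of which the authors' annotation placed 9 among dividing CD4 T cells, 3 among regulatory T cells (Tregs), 61 among activated CD4 T cells and 111 among T follicular helper cells. The Ins sort held 257 cells, with 35 dividing, 115 Treg, 25 activated, 61 T follicular helper and 21 B cells. The comparisons ask how far each factor differed between cells of 1 annotated class sorted with different tetramers, and between the classes within 1 sort.

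Interferon regulatory factors (IRFs) bind DNA elements with repeated GAAA cores. IRF9 is the DNA-binding subunit of the complex that answers type I interferon, and IRF7 amplifies type I interferon production. IRF1 is induced by interferon gamma and drives antigen processing and guanylate-binding protein genes, while IRF2 binds the same elements and can oppose IRF1. IRF8 is also induced by interferon gamma and is best known from B cells and myeloid cells. IRF4 is induced by the antigen receptor, is needed for plasma cells and for effector and follicular helper T cells, and binds composite elements with BATF, an AP-1 family protein that pairs with JUN proteins.

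The promoter stretches of Irf1, Irf8 and Irf2 are shown because their letters match known interferon response elements. The windows searched ran from 250 bases before to 50 bases after each RefSeq start (GRCm38.p6), 10 windows for the 7 genes. The searched motifs were GAAANNGAAA (the core of the interferon-stimulated response element, ISRE), TTCNNNGAA (the gamma-activated sequence, GAS) and TGANTCA (AP-1), on both strands. Matches stand in capitals in these 60-base stretches of the plus strand, at chr11:53769899-53769958 for Irf1, chr8:120736171-120736230 for Irf8 and chr8:46739495-46739554 for Irf2.
Irf1: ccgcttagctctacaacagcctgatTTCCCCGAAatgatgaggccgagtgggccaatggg
Irf8: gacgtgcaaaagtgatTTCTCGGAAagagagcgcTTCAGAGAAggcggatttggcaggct
Irf2: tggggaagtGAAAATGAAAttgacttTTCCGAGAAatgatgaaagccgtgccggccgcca
The Irf1 GAS match began 90 bases upstream of the start, and the Irf8 window held a pair of GAS matches, 171 and 153 bases upstream. The Irf2 window held an ISRE core at 241 and a GAS match at 224 bases upstream. Of 32851 promoter windows of this length, 8.30% held GAS and 3.44% the ISRE core. No window of a member held the AP-1 letters, which 7.81% of all windows held. A match describes the sequence and shows no binding. In mm10 (GENCODE vM21) Irf1 lies at chromosome 11, 53770014 to 53778374, and Irf2 and Irf8 lie at chromosome 8, 46739732 to 46847458 and 120736358 to 120756694. Irf4 lies at chromosome 13, 30749226 to 30766976. Irf7 lies at chromosome 7, 141262706 to 141266481, Irf9 at chromosome 14, 55603571 to 55610030, and Batf at chromosome 12, 85686669 to 85709087.

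Values are in TPM, transcript abundance scaled to 1 fixed sum per cell, and 1 TPM was the level set for detection. Each sort is 1 sample, so no test was possible, no value has a replicate error, and the exact 95% intervals given in brackets cover counting error only. Differences are of mean log2(TPM + 1) over cells, and members are called where such a difference passes 1 among genes detected in 10% of cells of either side. Cells held 2081 detected genes at the median (625 to 5929), with 3992 in HIP dividing and 3610 in Ins dividing cells, and 1862 to 2477 in the other groups of more than 3 cells. T cell markers were found as labelled: 409 of 420 T class cells held at least 4 of 7. Markers of T cell states were shared between classes. Of 7 T follicular helper markers, those found in most cells were 2 in HIP and 3 in Ins T follicular helper cells. They were 2 in HIP and 1 in Ins activated cells, 1 in Ins Tregs, and 5 in HIP and 3 in Ins dividing cells. Of 7 Treg markers, 4 were found in most Ins Tregs and 5 in most Ins dividing cells, against 0 in T follicular helper cells of either sort. The class annotated as B cells carried genes of antibody-secreting cells, with all 8 of those measured detected in most of its 21 cells. Irf4 is itself on that list, and the other 7 were detected in most cells too, such as the secretory factor Xbp1 in 100% (3894 ± 2514 TPM, SD over cells). Only 2 of 9 B cell markers were found in most of them. In the T follicular helper class, 3 cells (1 HIP, 2 Ins) held 8, 7 and 5 of 9 B cell markers and at most 2 of 7 T cell markers, and 1 cell of the B cell class held 6 of 7 T cell markers. Results that rest on these cells are given with and without them.

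**Figure D1:**
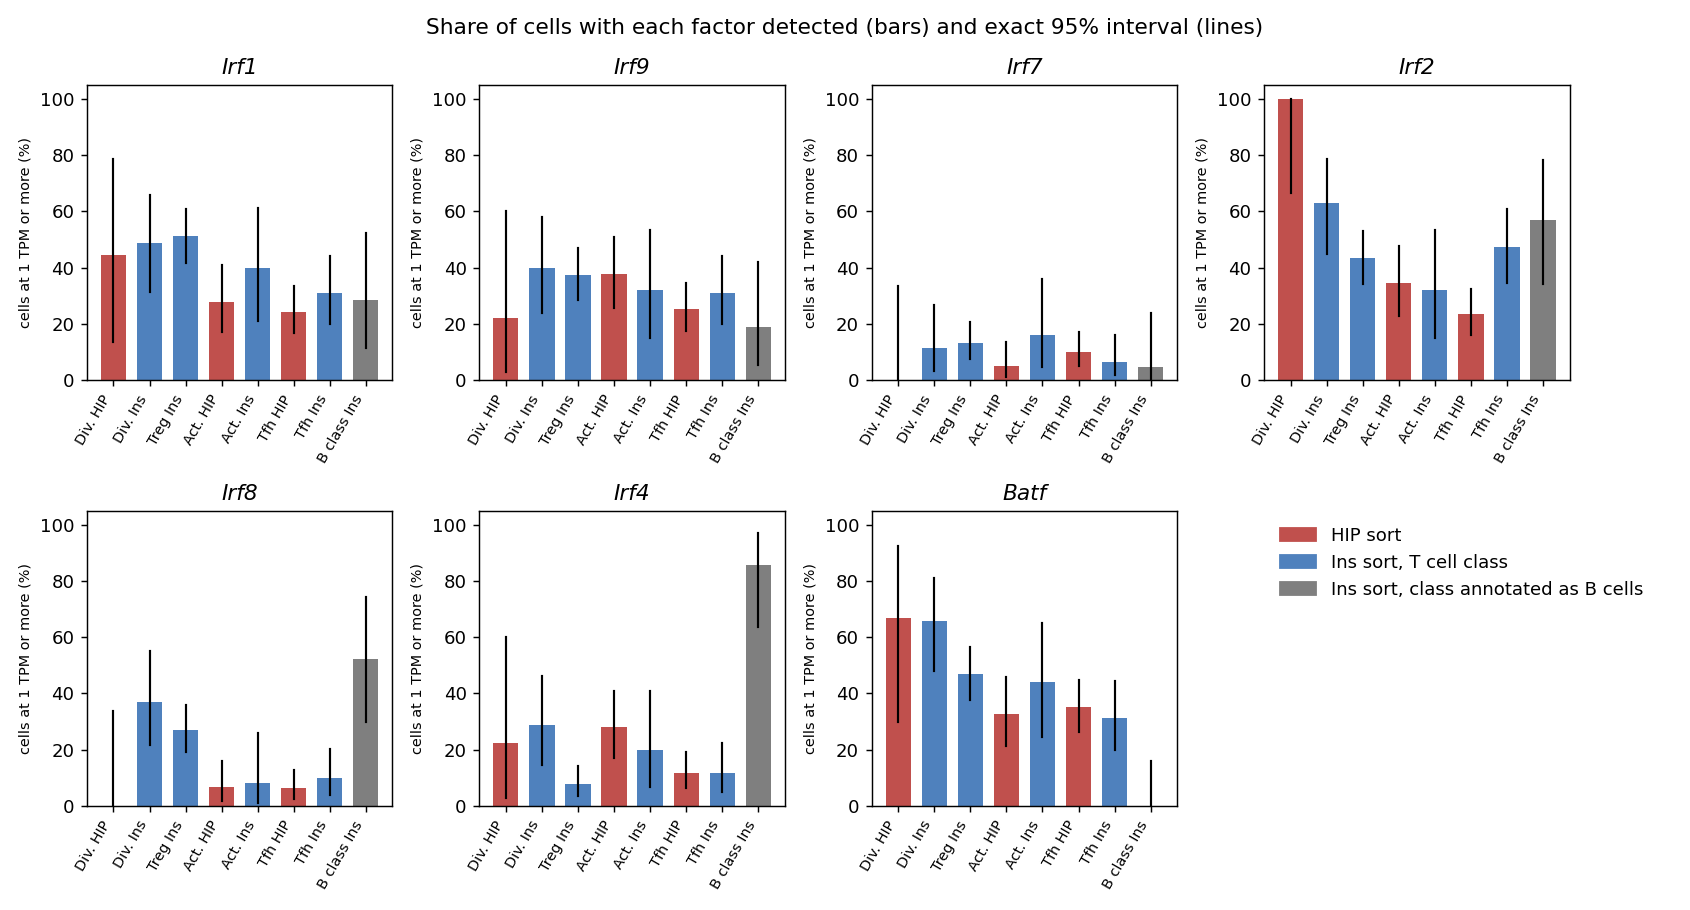
Share of cells (%) at 1 TPM or more for each factor by class and sort, with exact 95% intervals as lines: dividing (Div.), Treg, activated (Act.), T follicular helper (Tfh) and B cell class. Irf4 stood at 85.7% in the B cell class and at most 28.6% in a T cell group, and Batf at 0% in the B cell class against 31.1% or more in every T cell group shown.

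Irf9, of the type I interferon pathway, was found in every T cell class without a marked order. It was detected in 40.0% of Ins dividing, 37.7% of HIP activated, 37.4% of Ins Treg, 32.0% of Ins activated, 31.1% of Ins T follicular helper, 25.2% of HIP T follicular helper and 22.2% of HIP dividing cells, and in 19.0% of the B cell class. Each neighbour in this order had overlapping intervals. Mean levels, with SDs above each mean, were 211 ± 360 TPM in HIP activated, 217 ± 360 TPM in Ins activated and 167 ± 324 TPM in Ins Treg cells, against 3.27 ± 13.6 TPM in the B cell class. Its detected values fell into separate ranges. Of 137 T class cells with Irf9, 34 lay between 1 and 10 TPM, 9 between 10 and 100 TPM and 94 at 100 TPM or more. Low values made up 42.9% of the detections in HIP T follicular helper and 30.2% in Ins Treg cells, but 8.70% in HIP activated and 0% in Ins activated cells. With detection at 10 TPM the share was 14.4% in HIP and 21.3% in Ins T follicular helper cells and 26.1% in Ins Tregs. In the B cell class 1 of 21 cells (4.76%) then remained. The neighbouring gene Rnf31 overlaps 123 bases of Irf9 on the same strand. Rnf31 was detected in 7.55% [2.09 to 18.2] of the 53 T class cells with Irf9 above 0 and under 10 TPM, 19.4% [12.3 to 28.4] of the 103 at 10 TPM or more and 13.3% [9.41 to 18.0] of the 264 at 0. These intervals overlapped, and whether reads from the shared bases were counted for Irf9 was not tested. Among Ins Tregs, Irf9 was in 30 of 94 cells with Foxp3, the Treg lineage factor (31.9% [22.7 to 42.3]), and in 13 of 21 without (61.9% [38.4 to 81.9]), with intervals that overlapped slightly.

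Irf7, the amplifier of type I interferon, was the least often detected of the 7 in T class cells, at 9.76% [7.10 to 13.0] of 420. It was found in 4 of 25 Ins activated cells (16.0%), 15 of 115 Ins Tregs (13.0%), 4 of 35 Ins dividing cells (11.4%), 11 of 111 HIP T follicular helper cells (9.91%), 4 of 61 Ins T follicular helper cells (6.56%) and 3 of 61 HIP activated cells (4.92%). It was in 1 of 21 cells of the B cell class. None of the 9 HIP dividing cells held it, a count that leaves room for 33.3%. All neighbouring intervals in this order overlapped. Where present it was high: 38 of its 41 detections in T class cells were at 100 TPM or more, and the highest, 4564 TPM, was a HIP T follicular helper cell. Phrf1 overlaps 45 bases of Irf7 on the other strand and was detected in 17.5% of T class cells with Irf7 at 10 TPM or more, against 14.5% of those with none.

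Irf1, the interferon gamma-induced activator, was most often found in Ins Tregs. It was detected in 59 of 115 of them (51.3% [41.8 to 60.7], 403 ± 589 TPM), against 19 of 61 Ins T follicular helper cells (31.1% [19.9 to 44.3], 216 ± 478 TPM). Below Ins Tregs came Ins dividing (48.6%, 129 ± 172 TPM), HIP dividing (44.4%), Ins activated (40.0%, 517 ± 1231 TPM), the B cell class (28.6%), HIP activated (27.9%, 314 ± 717 TPM) and HIP T follicular helper cells (24.3%, mean 195 TPM). All neighbours overlapped. With all T classes joined, Irf1 stood at 27.2% [20.9 to 34.2] in the HIP sort, against 44.5% [38.0 to 51.1] in the Ins sort. The HIP blocks of 96 consecutive cell numbers stood at 30.7% and 24.0%, and the Ins blocks at 45.7%, 46.8% and 41.4%, so the sorts did not overlap by block. This pooled value mixes classes that differ in size between the sorts: within the T follicular helper class the Irf1 difference was -0.45, and it was -1.17 without block 1. The 2 HIP blocks lay on either side of the Ins value. Mean log2(TPM + 1) was 2.78 in HIP block 1 and 1.41 in HIP block 3, against 2.58 over the Ins cells of the class.

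Irf2, the factor that can oppose IRF1, gave the widest gap between the sorts among T follicular helper cells. Irf2 was present in 26 of 111 HIP cells (23.4% [15.9 to 32.4], 15.0 ± 49.8 TPM), against 29 of 61 Ins cells (47.5% [34.6 to 60.7], 82.2 ± 173 TPM). The HIP blocks held it in 23.7% and 23.1% of cells, and the Ins blocks in 50.0%, 54.5% and 39.1%. The groups did not overlap by block or by interval. The difference was -2.04, and 0.208% of the 5779 genes measured in this comparison differed by more. The median number of genes was 1951 in HIP and 1963 in Ins cells of the class. Each block came from a single sort, and what separates blocks and what separates sorts cannot be told apart. In the other classes Irf2 ran from 100% of 9 HIP dividing cells and 62.9% of Ins dividing cells through 57.1% of the B cell class and 43.5% of Ins Tregs to 34.4% of HIP and 32.0% of Ins activated cells. All neighbouring intervals overlapped. Detection and level parted in the dividing cells. Where Irf2 was present its median was 14.1 TPM among HIP dividing and 20.1 TPM among Ins dividing cells. It was 73.5 TPM in Ins and 39.1 TPM in HIP T follicular helper cells, and 18.6 TPM in the B cell class. Lower detected levels in dividing cells were not particular to Irf2. Every other member also had a lower detected median in Ins dividing than in Ins Treg cells. For Irf1 these were 228 and 646 TPM, and for Batf 611 and 940 TPM.

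Irf8, known from B cells and myeloid cells, was found in the B cell class and, among T cells, mainly in Ins Tregs and Ins dividing cells. Irf8 was present in 13 of 35 Ins dividing cells (37.1% [21.5 to 55.1], 70.1 ± 137 TPM) and 31 of 115 Ins Tregs (27.0% [19.1 to 36.0], 184 ± 434 TPM), against 11 of 21 cells of the B cell class (52.4% [29.8 to 74.3], 166 ± 213 TPM). The other groups stood at 9.84% (Ins T follicular helper), 8.00% (Ins activated), 6.56% (HIP activated), 6.31% (HIP T follicular helper) and 0 of 9 (HIP dividing, up to 33.3% possible). Neighbours in this order overlapped, but the Ins Treg interval and that of HIP T follicular helper cells [2.57 to 12.6] did not. The Treg share was 32.3%, 25.0% and 25.0% in the Ins blocks, and the Ins dividing share 60.0%, 20.0% and 20.0%. Within the Ins Treg class it was found in 26 of 94 cells with Foxp3 (27.7%), and in 5 of 21 without (23.8%). The annotated gene Gm20388 overlaps 20337 bases of Irf8, its whole span, on the same strand and is not among the genes measured. Whether reads of Gm20388 were counted for Irf8 was not tested.

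All 3 T follicular helper cells with B cell markers held Irf8, at 800 TPM (HIP), 3222 TPM and 532 TPM (Ins), and 3222 TPM was the highest Irf8 level of any T class cell. Without them, Irf8 was in 6 of 110 HIP (5.45%, 25.6 ± 117 TPM) and 4 of 59 Ins T follicular helper cells (6.78%, 19.9 ± 84.2 TPM), where with them the Ins mean was 80.8 ± 422 TPM. With all T classes joined, Irf8 stood at 5.98% [3.02 to 10.4] in the HIP sort (4.55% and 7.29% by block), against 22.0% [16.9 to 27.9] in the Ins sort (31.4%, 20.3% and 16.1% by block). Of the 52 Ins T cells with Irf8, 31 were Tregs and 13 were dividing cells, classes that held 3 and 9 HIP cells.

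Irf4, induced by the antigen receptor and needed by plasma cells, was most often found in the B cell class. It was detected in 18 of 21 cells of that class (85.7% [63.7 to 97.0]), at 274 ± 271 TPM with a median of 218 TPM. In T cells it was in 28.6% of Ins dividing, 27.9% of HIP activated, 22.2% of HIP dividing, 20.0% of Ins activated, 11.7% of HIP T follicular helper and 11.5% of Ins T follicular helper cells, and in 7.83% [3.64 to 14.3] of Ins Tregs. The gap between the B cell class and the next group lay outside both intervals, and neighbours among the T cell groups overlapped, while Ins dividing cells [14.6 to 46.3] and Ins Tregs did not. The median of detected values was 118 TPM over all T classes, against 271 TPM in the B cell class. It ran between 13.9 TPM in HIP dividing and 335 TPM in Ins T follicular helper cells, and was 291 TPM in Ins Tregs, groups with 2, 7 and 9 positive cells. Leaving out the cell with T cell markers left 17 of 20 (85.0%) in the B cell class.

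The HIP activated cells with Irf4 came mostly from 1 block. They were 2 of 27 in block 1 (7.41%) and 15 of 34 in block 3 (44.1%). HIP T follicular helper cells stood at 11.9% and 11.5% in the same blocks. Over all HIP cells the median number of genes was 1799 in block 1 and 2175.5 in block 3, and the part of depth was not tested. Ins Tregs had Irf4 in 16.1%, 0% (0 of 40) and 9.09% of cells in their blocks.

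Batf, the partner of IRF4 and JUN proteins, was the reverse of Irf4 at the B cell boundary. It was detected in every T cell group: 66.7% of HIP dividing, 65.7% of Ins dividing, 47.0% of Ins Treg, 44.0% of Ins activated, 35.1% of HIP T follicular helper, 32.8% of HIP activated and 31.1% of Ins T follicular helper cells. In the B cell class it was found in 0 of 21 cells, which allows up to 14.3%, while the class held a median of 2477 genes, against 1862 to 2075 in the T follicular helper, activated and Ins Treg groups. Its mean was 609 ± 956 TPM in Ins Tregs and 545 ± 656 TPM in Ins dividing cells, against 427 ± 815 TPM in HIP and 396 ± 781 TPM in Ins T follicular helper cells. Of 173 T class cells with Batf, 162 held 100 TPM or more. Over 420 T cells its level correlated with the number of genes at 0.24, a weak value but above the other 6 members. The 3 HIP Tregs held Irf1 in 2, Irf2 in 2, Batf in 1 and none of the other 4 factors, too few to compare.

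**Figure D2:**
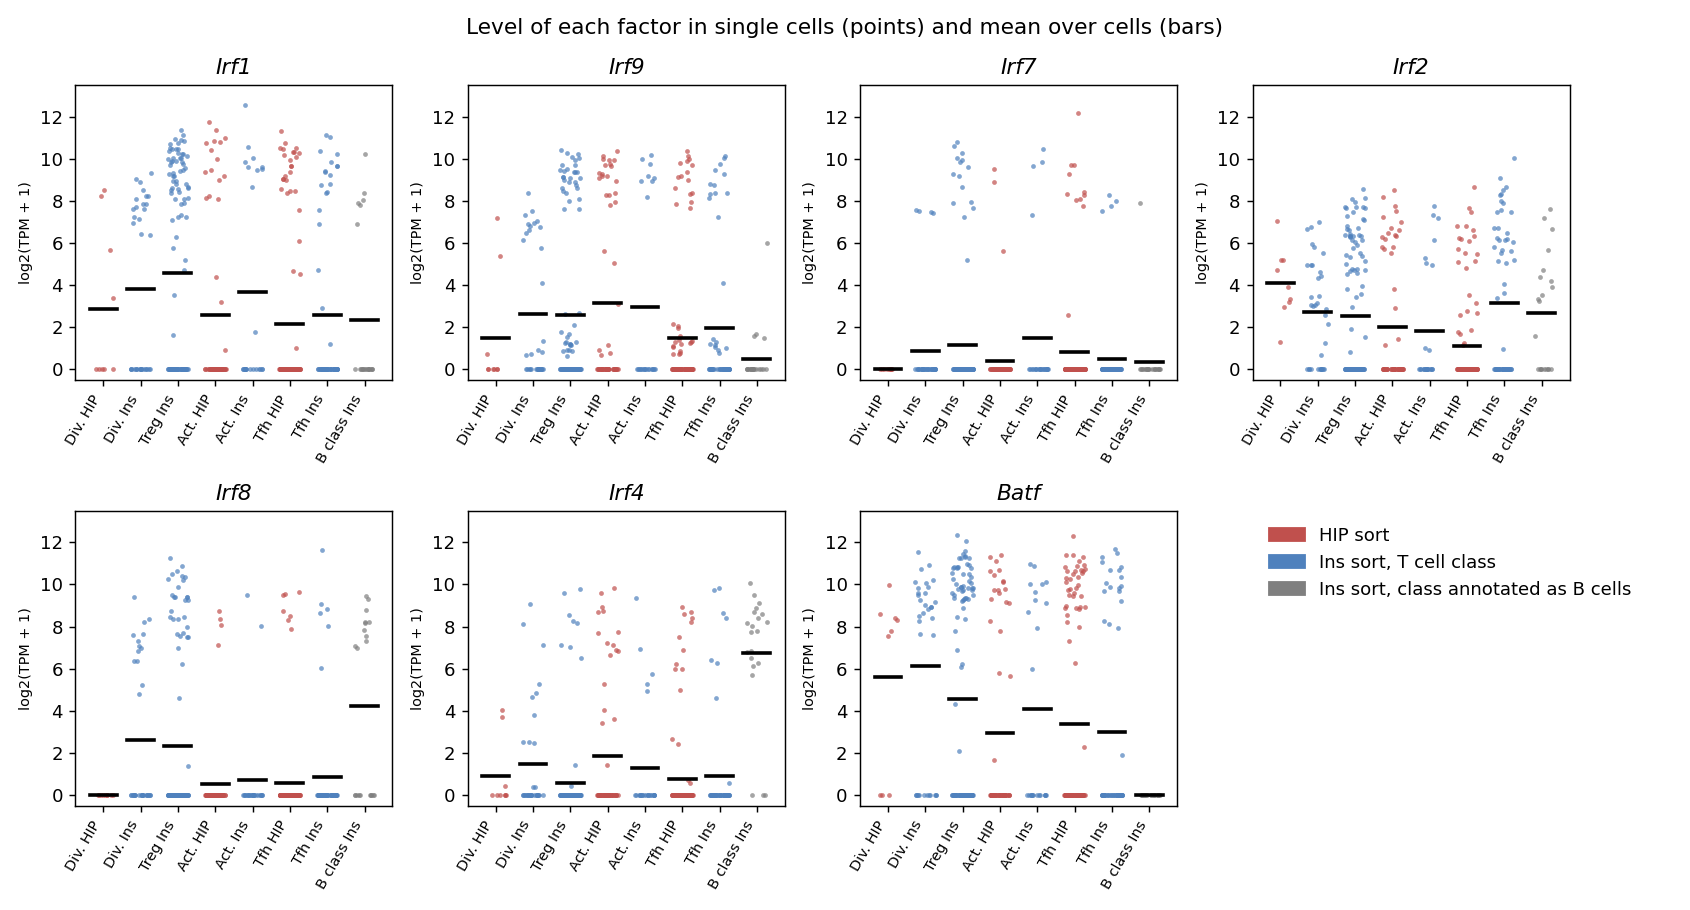
Level of each factor, log2(TPM + 1), in single cells (points) by class and sort, with the mean over cells as a bar. Over all T classes each factor is under 1 TPM in most cells, 162 of 173 Batf detections in T cells lie at 100 TPM or more, and Irf9 has a second set of low values that hold 34 of its 137 T cell detections.

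Between the sorts, Irf2 was the 1 member whose intervals lay apart in any class. In the T follicular helper class 5 members passed the filter and 1, Irf2, was called, in a comparison in which 5.87% of all genes measured were called. The remaining differences of HIP minus Ins were -0.47 for Irf9, -0.11 for Irf4 and 0.40 for Batf, with intervals that overlapped. In the activated class 3 of 6 members were called, all lower in HIP, where 15.2% of genes were called. They were Irf1 (-1.09), Irf7 (-1.10) and Batf (-1.13), against 0.20 for Irf2, 0.58 for Irf4 and 0.19 for Irf9. Every interval overlapped, and each of the 3 calls was lost on leaving out some block. Irf1 stood at -0.38, -0.97 and -0.42 without blocks 2, 3 and 4, and at -2.72 without block 5. Irf7 stood at -0.79 and -0.75 without blocks 2 and 5 and at -1.68 without block 4, and Batf at -0.91 and -0.70 without blocks 3 and 5. At a pseudocount of 10 TPM none was past 1 (-0.76 for Irf1, -0.73 for Irf7 and -0.73 for Batf). In the dividing class 3 of 7 were called against 27.2% of genes, with 9 HIP cells. Irf8 was lower in HIP (-2.64), as was Irf9 (-1.13), and Irf2 was higher (1.39), all with overlapping intervals. The dividing cells of the sorts also differed in Foxp3, which 27 Ins dividing cells held and 8 did not, while no HIP dividing cell held it. Irf8 was in 11 of the 27 and in 2 of the 8. The part of this make-up in the differences between the sorts was not tested. At a pseudocount of 10 TPM Irf9 stood at -0.61 and Irf2 at 0.50. Irf9 stood at -0.82 and -0.78 without blocks 1 and 2, Irf8 at -1.55 without block 2, and Irf2 at 0.98 without block 5 and 2.32 without block 2.

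**Figure D3:**
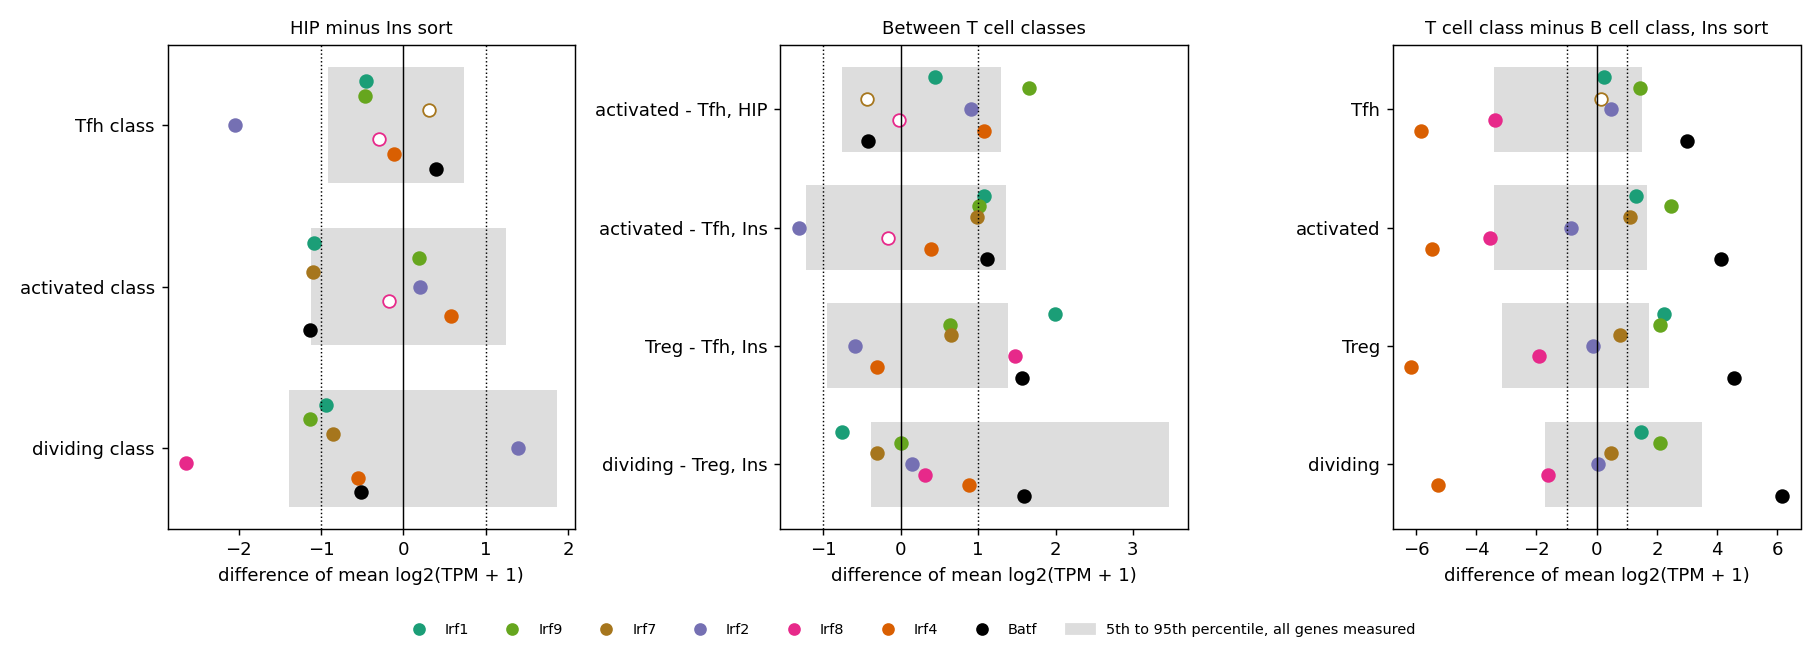
Difference of mean log2(TPM + 1) for each factor (points, open where the gene did not pass the filter) in 11 comparisons, beside the 5th to 95th percentile of all genes measured (grey). Dotted lines stand at 1 and -1. Irf2 in the T follicular helper class (-2.04), Irf8 in the dividing class (-2.64), and Irf4 and Batf against the B cell class are among the points outside the grey range.

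Among T cell states of the Ins sort, Tregs differed from T follicular helper cells in 3 of 7 members, all higher: Irf1 by 1.99, Batf by 1.56 and Irf8 by 1.47. In this comparison 13.3% of genes were called and the median of all genes was 0.01. The classes come from expression itself, so this describes them and tests nothing. All 3 were higher in Tregs within each of the 3 Ins blocks, by 0.83 to 2.66 for Irf1, 0.99 to 1.93 for Irf8 and 1.23 to 2.17 for Batf. The Irf8 difference was 1.79 without the T follicular helper cells that held B cell markers. Irf9 (0.64), Irf7 (0.65), Irf4 (-0.31) and Irf2 (-0.59) stayed below 1. Detection intervals overlapped for all 3. Each call was lost under some setting: Irf1 stood at 0.90 and Batf at 0.62 by the log2 ratio of mean TPM, and Irf8 at 0.93 with a pseudocount of 10 TPM.

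**Figure D4:**
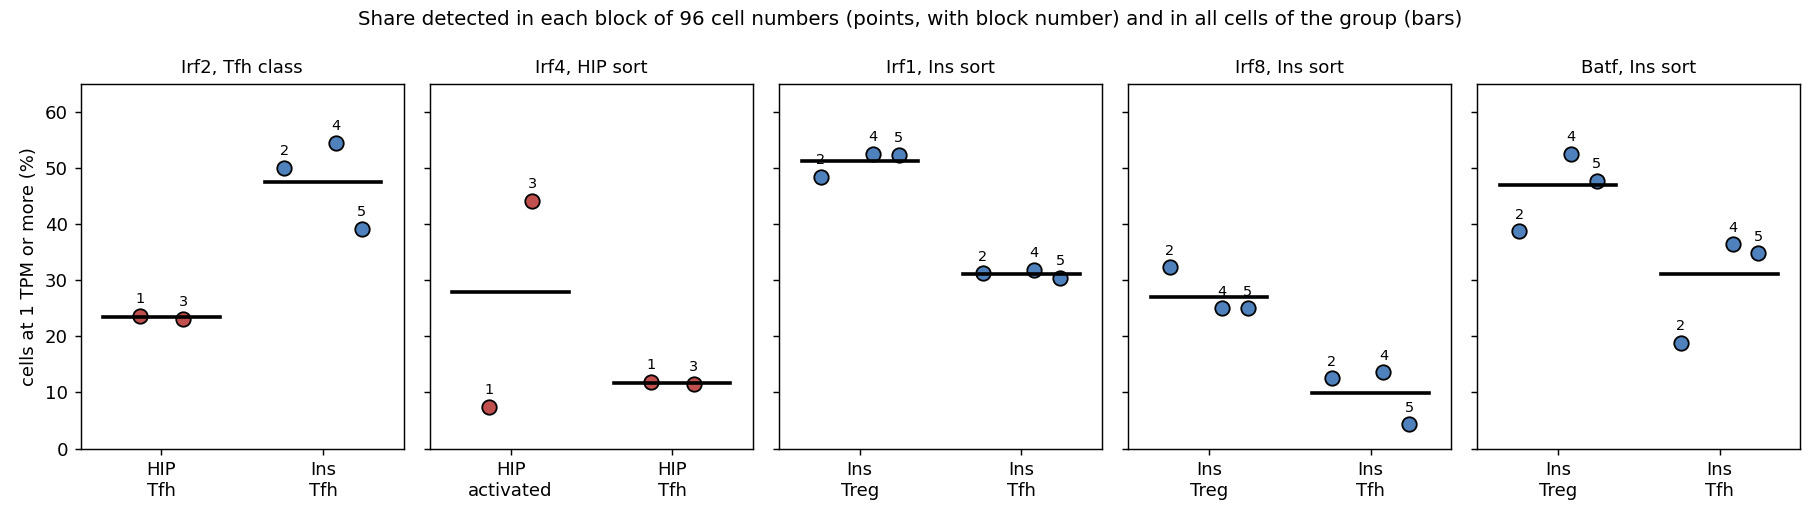
Share of cells (%) at 1 TPM or more in each block of 96 consecutive cell numbers (points) and in the whole group (bars). Irf2 in T follicular helper cells stood at 23.7% and 23.1% in the HIP blocks, below every Ins block, Irf4 in HIP activated cells at 7.41% and 44.1%, and Irf1, Irf8 and Batf higher in Tregs than in T follicular helper cells in each Ins block.

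Activated cells differed from T follicular helper cells in 2 of 5 members in the HIP sort, where 11.3% of genes were called, and in 4 of 6 in the Ins sort, where 17.9% were. In HIP these were Irf9 (1.66) and Irf4 (1.08), and both rested on block 3: without it Irf9 stood at 0.36 and Irf4 at -0.30, and without block 1 they stood at 2.84 and 2.22. Irf4 also stood at 0.61 with a pseudocount of 10 TPM and 0.96 with equal weight of blocks. In Ins, Irf1 (1.08), Irf9 (1.01) and Batf (1.11) were higher and Irf2 (-1.32) was lower in activated cells. Irf1 stood at 0.51 and 0.19 without blocks 2 and 4 and at 2.76 without block 5. Irf9 stood at 0.97 and 0.75 without blocks 2 and 4, Irf2 at -0.82 without block 4, and Batf at 0.90 without block 5. Without the T follicular helper cells that held B cell markers Irf9 stood at 0.94. At a pseudocount of 10 TPM none of the 4 was past 1, and Batf stood at -0.02 by the log2 ratio of mean TPM. All intervals between activated and T follicular helper cells overlapped for the 7 members in both sorts.

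Dividing cells held many more detected genes than Tregs, and the median of all genes between them was 0.80, and 43.2% of genes were called. Only Batf among the 7 was called, at 1.59, with 0.96 at a pseudocount of 10 TPM and -0.16 by the log2 ratio of mean TPM. It stood at 0.09 without block 2 and 2.44 without block 4. Relative to the median of all genes, Irf1 (-0.76), Irf7 (-0.31), Irf9 (0.00), Irf2 (0.15) and Irf8 (0.31) were lower, and Irf4 (0.88) was close to it. Irf4 was also the 1 member with intervals apart between these classes, and it was higher in dividing cells within 3 of 3 blocks.

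Against the B cell class, each T cell class of the Ins sort was lower in Irf4 and higher in Batf, with intervals that did not overlap. Irf4 differed by -5.84 in T follicular helper, -5.45 in activated, -6.15 in Treg and -5.27 in dividing cells. Batf differed by 2.99, 4.11, 4.56 and 6.15 in the same order, and both kept their sign within all 3 Ins blocks. Irf8 was lower in T follicular helper (-3.38) and activated cells (-3.54), with intervals apart. It was also lower in Tregs (-1.91) and dividing cells (-1.60), where intervals overlapped. Without block 4, which held 14 of the 21 cells, these values were -0.80 and -0.11, and without block 2 dividing cells stood at -2.73. By the log2 ratio of mean TPM Irf8 stood at 0.15 in Tregs, in the other direction. Leaving out the cells with markers of another lineage gave -3.91 for Irf8 in T follicular helper cells. Irf9 was higher by 1.45, 2.46, 2.09 and 2.10 in T follicular helper, activated, Treg and dividing cells, with overlapping intervals at 1 TPM, and by 0.92 in T follicular helper cells without block 4. The members called were 4 of 6 in T follicular helper, 6 of 7 in activated, 5 of 7 in Treg and 5 of 7 in dividing cells. The share of all genes called was large as well, at 39.3%, 42.5%, 39.1% and 44.8%. Irf1 was among the calls in activated (1.32), Treg (2.23) and dividing cells (1.46), and Irf7 in activated cells (1.12). Without block 2 Irf1 stood at 0.36 in activated and 0.91 in dividing cells, and it was at 2.71 in activated cells without block 5 and 2.74 in dividing cells without block 4. Irf7 in activated cells stood at 0.77, 2.07 and 0.65 without blocks 2, 4 and 5. At a pseudocount of 10 TPM Irf9 in T follicular helper cells stood at 0.97, Irf1 in dividing cells at 0.81 and Irf7 in activated cells at 0.75. Irf1 in dividing cells stood at 0.20 by the log2 ratio of mean TPM, and Irf7 in activated cells at 0.37 among cells with 1500 to 3000 genes.

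The other genes of these pathways differed as follows between Ins Tregs and Ins T follicular helper cells. Ifngr1, the ligand-binding chain of the interferon gamma receptor, was detected in 92 of 115 Tregs (80.0%, 1118 ± 1335 TPM), against 9 of 61 T follicular helper cells (14.8%, 33.4 ± 129 TPM), a difference of 6.67. It was in 77.1% of Ins dividing cells and 38.1% of the B cell class. The widest difference of any gene in this comparison was 7.18 in either direction. Ifngr1 comes from a list of interferon receptor and kinase genes, and the rest of that list is not described here. Of 18 interferon gamma and IRF1 target genes, 17 passed the filter, 12 were higher in Tregs and 5 were past 1, beside 51.2% higher and 13.3% past 1 in either direction among all genes. The list median was 0.58 beside 0.01 for all genes. The 4 with the widest difference were guanylate-binding protein genes, Gbp7 (1.82), Gbp6 (1.80), Gbp4 (1.64) and Gbp2 (1.17). Gbp7 was in 44.3% of Tregs, against 18.0% of T follicular helper cells. Of 16 type I interferon targets measured, 6 passed and 1, the exonuclease gene Isg20 (2.25), was past 1, near the 13.3% of all genes, with a list median of 0.04. Of 12 genes reported as bound or driven by IRF4 and BATF, 11 passed, 7 were past 1 upward and 2 downward, beside 13.3% of all genes in either direction, with a list median of 1.38. Those higher were led by the inhibitory receptor Ctla4 (4.96), the chemokine receptor Ccr8 (4.74), the cytokine Il10 (3.82) and the costimulator Icos (2.40). Those lower were Bcl6 (-1.88), the follicular helper regulator, and the cytokine Il21 (-1.46). Ctla4 and Icos are also known from Tregs in general. Ikzf2 of this list is a Treg marker too, and Bcl6, Il21 and Icos are T follicular helper markers. The classes come from expression itself, so the excess in this list describes them and tests nothing about IRF4 or BATF.

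In the HIP sort, activated cells against T follicular helper cells showed the interferon gamma list higher in 13 of 16 members, 6 past 1, beside 57.2% higher and 11.3% past 1 among all genes. The median was 0.55 beside 0.09 for all genes, led by Gbp7 (2.24) and Gbp4 (1.49), while Irf1 itself differed by 0.44. Gbp7 was in 42.6% of HIP activated, against 9.01% of HIP T follicular helper cells. The IRF4 and BATF list was past 1 upward in 6 of 10 and downward in 1, Bcl6 (-3.36), where 11.3% of all genes were past 1. Those higher included Il10 (3.06), Ccr8 (2.52) and Prdm1 (2.45). Here too the list shares markers with the classes, and its count tests nothing about IRF4 or BATF. In the Ins sort the same interferon gamma list was higher in 9 of 16, beside 49.6% of all genes. In each direction 1 was past 1, where 17.9% of all genes were past 1, and the list median was 0.14. Between the sorts in the T follicular helper class, where Irf2 was lower in HIP, 11 of 16 genes of that list were lower in HIP. Among all genes 3192 of 5779 were lower. Past 1 were 2 of the list, Igtp (-1.57) and Psmb10 (-1.07), where 5.87% of all genes were past 1. The list median was -0.29 beside -0.06 for all genes, and a link to Irf2 was not tested. Of 5 genes of the AP-1 list that passed there, 4 were higher in HIP, beside 44.8% of all genes, and Maf (-0.05) was lower. Of the 4, 3 were past 1, where 5.87% of all genes were past 1 in either direction. Junb, a partner of BATF, stood at 79.3% (2372 ± 3104 TPM) in HIP cells, against 59.0% (429 ± 588 TPM) in Ins cells, a difference of 3.35, Fos stood at 2.15, Jun at 1.16 and Jund at 0.10, while Batf was at 0.40. Fos, Jun and Junb are immediate-early genes, and their part in the Irf2 difference was not tested. Against the B cell class, Irf5, a relative of the members known from B cells, was found in 6.96% of Ins Tregs and 3.28% of Ins T follicular helper cells, against 47.6% of the B cell class. Batf2 and Batf3 are on the AP-1 list but were not among the 5 genes of it that passed between the sorts in the T follicular helper class.

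Members were also compared within single cells. In 420 T cells, Batf and Irf4 were detected together in 38, Batf alone in 135, Irf4 alone in 25 and neither in 222. Irf4 was in 22.0% [16.0 to 28.9] of cells with Batf and 10.1% [6.66 to 14.6] of cells without. Cells with both held 2262 genes at the median and cells with neither 1934, and the part of depth in this was not tested. The pattern was uneven over groups. All 7 Ins T follicular helper cells and 8 of 9 Ins Tregs with Irf4 also held Batf. Over all cells of these groups Batf stood at 31.1% and 47.0%. It was in 5 of 13 HIP T follicular helper, 6 of 10 Ins dividing and 2 of 2 HIP dividing cells with Irf4, beside 35.1%, 65.7% and 66.7% of all. Among activated cells with Irf4 it was in 8 of 17 in HIP and 2 of 5 in Ins, beside 32.8% and 44.0% of all. Irf9 was in 48.8% [32.9 to 64.9] of the 41 cells with Irf7 and 30.9% [26.3 to 35.8] of those without, with overlapping intervals and similar gene numbers (1995 with both, 2033.5 with neither). Irf9 was in 47.5% [34.3 to 60.9] of Ins Tregs with Irf1 and 26.8% [15.8 to 40.3] of those without, but in 23.5% of HIP activated cells with Irf1 and 43.2% of those without, and in 25.9% and 25.0% of such HIP T follicular helper cells. All these intervals overlapped. Irf8 was in 23.8% of T cells with Irf4 and 13.4% of those without, and intervals overlapped.

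The genes most like each member over 420 T cells, by Pearson correlation of log2(TPM + 1) among 5932 genes, were all weakly correlated and are named as a description only, since cells share their sort and block. They were Irf8 for Irf1 (0.22), Xaf1 for Irf7 (0.19), Anxa4 for Irf9 (0.20), Trib2 for Irf2 (0.21), Serpina3h and Serpina3g for Irf8 (0.27 each), Ifi47 for Irf4 (0.24), and Slc39a1 (0.28) and Il2ra (0.27) for Batf. A median of 1 to 3 members was detected per cell in each group. Cells without any of the 7 made up 25 of 111 HIP T follicular helper cells and 10 of 61 Ins T follicular helper cells, 11 of 61 HIP and 4 of 25 Ins activated cells, 15 of 115 Ins Tregs, 1 of 35 Ins dividing cells, no HIP dividing cell and 1 of 21 cells of the B cell class.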

How the data were processed

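Single cells were profiled with SMART-Seq2 and paired-end reads, per the labels' protocols. TopHat, Bowtie, RSEM 1.2.8 and the build mm10 appear, with no role given, per the submitters' processing notes. The authors deposited natural log values for 13561 genes in 441 cells, read as ln(TPM/10 + 1) because TPM turned back in this way summed to 1000000 in every cell. The plan had allowed for this scale. Class and sort came from the authors' deposited annotation and matched the labels in 441 of 441 cells. The clustering method and the filters on cells and genes were not given in the sources used here, and no doublet caller was run. Whether counting used strand is not given either, so reads of overlapping genes cannot be told apart. Besides the overlaps given for Irf7, Irf8 and Irf9, annotated genes on the other strand overlap Irf1 (907 bases) and Irf2 (433 to 1723 bases). None of these is among the genes measured.

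The labels name no animal, so each sort counted as 1 sample and neither p-values nor standard errors were made from cells. Shares carry exact Clopper-Pearson 95% intervals, a share of 0 the limit set by 3 cells, and means an SD that measures how single cells vary. Genes entered a comparison if detected at 1 TPM in 10% of cells of either side, and a difference of mean log2(TPM + 1) past 1 was called. TPM keeps no depth, so the number of genes detected stands in for it. Zeros can be missed transcripts, since Gapdh was listed at 0 in 29 cells. Blocks of 96 consecutive cell numbers each held 1 sort and describe spread, not replicates.

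The members, gene lists and comparisons were chosen with earlier results of these data known. All members are named, the 4 widest differences of a list at most, and the 3 most alike genes at most. Cells with 3 or more markers of another lineage were left out as an alternative chosen after seeing the data. The difference code was tested on simulated data. Promoter windows and gene positions came from RefSeq (GRCm38.p6) and GENCODE vM21. Python 3.11.15, numpy 2.4.6, pandas 2.3.3 and scipy 1.17.1 were used.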

Additional observations from a re-analysis of the deposited data

Results flagged for a closer look

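Irf2 differed between the sorts in opposite directions in 2 classes. It was lower in HIP T follicular helper cells (-2.04) and higher in HIP dividing cells (1.39), a gap of -3.43 between the differences. This gap was not tested. The dividing side rests on 9 HIP cells, all with Irf2 detected, against 22 of 35 Ins cells, and 4 of these 9 detections lay between 1 and 10 TPM. With a pseudocount of 10 TPM the dividing difference was 0.50.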

How the results depend on the processing

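Each sort is 1 sample without known depth, so calls describe these cells only. Of 37 calls of a member in 11 comparisons, 16 stayed past 1 under every alternative run and every block left out. Between the sorts these were Irf2 in the T follicular helper class and Irf8 in the dividing class, where not every alternative could be run. No call between T cell classes was among them. The rest were against the B cell class, where 39.1% to 44.8% of all genes were called. Counts of members called moved by over 1.5 times as follows. With a pseudocount of 10 TPM they were 0 for HIP against Ins activated, 1 for HIP against Ins dividing, 1 for activated against T follicular helper in HIP and 0 in Ins, and 0 for dividing against Treg. By the log2 ratio of mean TPM they were 1 for HIP against Ins activated and 4 for dividing against Treg. Among cells with 1500 to 3000 genes they were 1 for HIP against Ins activated, 1 for activated against T follicular helper in Ins and 3 for dividing against Treg, while no HIP dividing cell was left to compare. With equal weight of blocks, activated against T follicular helper in HIP gave 1. Leaving out each block gave 1 to 2 for HIP against Ins T follicular helper, 1 to 4 for activated, 2 to 5 for dividing, 0 to 4 for activated against T follicular helper in HIP, 2 to 4 in Ins and 1 to 2 for dividing against Treg. HIP against Ins dividing was not run without block 3, which left 2 HIP cells. By the ratio of means 3 calls turned sign: Batf in activated against T follicular helper in Ins (-0.02), Batf in dividing against Treg (-0.16) and Irf8 in Treg against the B cell class (0.15). Irf4 in activated against T follicular helper in HIP was between -0.30 (without block 3) and 2.22 (without block 1). The causes were not tested. No detection filter, detection at 10 TPM, TPM without Rn45s and the added alternative without cells of another lineage moved no count by over 1.5 times. No paired analysis was possible because the labels name no animal and each sort counted as 1 sample.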
